A study of Mus musculus with 20 samples.

Results

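Gpld1, Sostdc1, Ptpn5, Hopx, Plac8, Prg4, Inpp5f, Cyth3 and Sgk3 are the genes described here, in regulatory T (Treg) cells that have (WT) or lack (double knockout, DKO) the DNA dioxygenases Tet2 and Tet3. The 9 genes were chosen by symbol for a fall in DKO Treg cells, out of 19169 genes listed in the count tables of the series. All 9 genes were present in both tables and all 9 passed the filter on low counts. Because the comparison of DKO with WT Treg cells chose them, that comparison is given below as values without a test, and so is every comparison that shares the Treg libraries.

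Sorted cells were Treg cells (CD4+Foxp3+, seen as YFP+) and CD4+Foxp3- T cells (YFP-) of C57BL/6 mice at 14 weeks of age. WT mice carried the Foxp3Cre allele, in which a YFP-Cre fusion is made under control of Foxp3, and DKO mice were Tet2/3fl/flFoxp3Cre, so all groups share the Cre allele and the floxed genes are cut only in cells that express or have expressed Foxp3. One table holds 8 libraries of pooled spleen and peripheral lymph nodes (pLNs), 2 in each of the 4 groups, and the other 12 libraries of mesenteric lymph nodes (mLNs), 3 in each group. The replicates are biological according to the methods. The DKO mice behind the spleen and pLN libraries were littermates that differed in the severity of splenomegaly, and the labels do not tell which replicate is which.

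TET enzymes oxidize 5-methylcytosine and thereby allow DNA to lose methylation, and Treg cells depend on demethylated regulatory regions for several of their signature genes. The 9 genes belong to no common pathway. Gpld1 encodes a phospholipase that cuts the glycosylphosphatidylinositol (GPI) anchor of cell surface proteins, Prg4 the secreted mucin-like protein lubricin, and Sostdc1 a secreted antagonist of BMP and Wnt signals. Hopx is a small homeodomain protein that does not bind DNA itself and is known in induced Treg cells for restraint of AP-1 genes. Inpp5f, Cyth3 and Sgk3 act on or are recruited by phosphoinositides, Ptpn5 is a tyrosine phosphatase of MAP kinases first described in the striatum, and Plac8 is a small cysteine-rich protein.

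Counted reads per library numbered 9998478 to 15449158 in mLNs, and 13525932 to 15253141 for spleen and pLNs. A gene without reads has an upper limit of 3 counts, which was 0.172 to 0.299 CPM (counts scaled to the library) and covers counting error only. Within a gene, levels are given as TMM-normalized CPM, and levels are compared between genes only as TPM, transcript values that are scaled by gene length. Foxp3 averaged 312 and 305 CPM in WT versus DKO Treg cells of mLNs and 159 and 327 CPM in spleen and pLNs, against 0.496 to 1.45 CPM in the Foxp3- groups, so the sorted cells carried the marker of their label. Counts of Tet2 and Tet3 include exons outside the deletions and do not check the genotype (Tet2 averaged 10.5 CPM in WT versus 10.6 CPM in DKO Treg cells of mLNs, and 1.59 against 5.03 CPM in spleen and pLNs, where Tet3 averaged 30.8 against 49.5 CPM; neither gene was called there, with edgeR's adjusted p of 0.144 and 0.101). Some libraries stood apart. Jchain, a plasma cell gene, was at 412 and 474 CPM in the Treg and Foxp3- libraries of DKO replicate 2 from mLNs, and at 1.24 to 46.8 CPM in the other 10. In spleen and pLNs the same gene, listed as Igj, was at 88.4 and 119 CPM in the Treg and Foxp3- libraries of DKO replicate 1 and at 2.73 to 23.6 CPM in the other 6. That Foxp3- library also held 344 CPM of the Treg gene Ctla4, where the other Foxp3- libraries of that table held 34.4 to 50.4 CPM. Tet2 in DKO Treg cells of spleen and pLNs was at 8.01 CPM in replicate 1 and 2.05 CPM in replicate 2. Several calls and values that depend on the libraries that stood apart are also given without them.

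In WT Treg cells the order of the members by TPM was led by Hopx in both tables. In mLNs Hopx averaged 159 ± 6.28 TPM (SD, n = 3), Plac8 80.2 ± 14.8, Cyth3 60.9 ± 1.72, Prg4 48.7 ± 2.82 and Inpp5f 42.0 ± 2.72, and no neighbours among these 5 overlapped. A lower group followed, with Sgk3 at 6.91 ± 0.25 TPM, Sostdc1 at 5.69 ± 1.24, Gpld1 at 4.25 ± 0.662 and Ptpn5 at 1.65 ± 0.393; the ranges of Sgk3 and Sostdc1 overlapped, and so did those of Sostdc1 and Gpld1. Hopx was above 95.3% of the genes of the table and Ptpn5 above 39.1%. For spleen and pLNs, Hopx averaged 195 ± 0.282 TPM (n = 2), Cyth3 37.8 ± 1.73 and Inpp5f 24.5 ± 2.72, while Sostdc1 came next at 18.9 ± 5.46 and overlapped with Inpp5f. Gpld1 was last there, at 2.74 ± 0.600 TPM.

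The members did not form one pattern across cell types in WT mice. Of the 9, Gpld1, Prg4, Hopx, Ptpn5, Inpp5f and Cyth3 were higher in WT Treg than in WT Foxp3- cells in both tables. Sgk3 was lower in Treg cells in both. Sostdc1 was lower in spleen and pLNs (-1.66 ± 0.67), and in mLNs its ranges overlapped (-0.51 ± 0.96). Plac8 was higher in Treg cells in mLNs and lower in spleen and pLNs. The fitted log2 difference, WT Treg minus WT Foxp3-, was largest for Gpld1, at 4.29 ± 0.59 (SE) in mLNs and 2.59 ± 0.47 in spleen and pLNs. For Plac8 it was 2.14 ± 0.19 and -1.72 ± 0.36, and for Sgk3 -1.04 ± 0.41 and -1.09 ± 0.41.

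**Figure D1:**
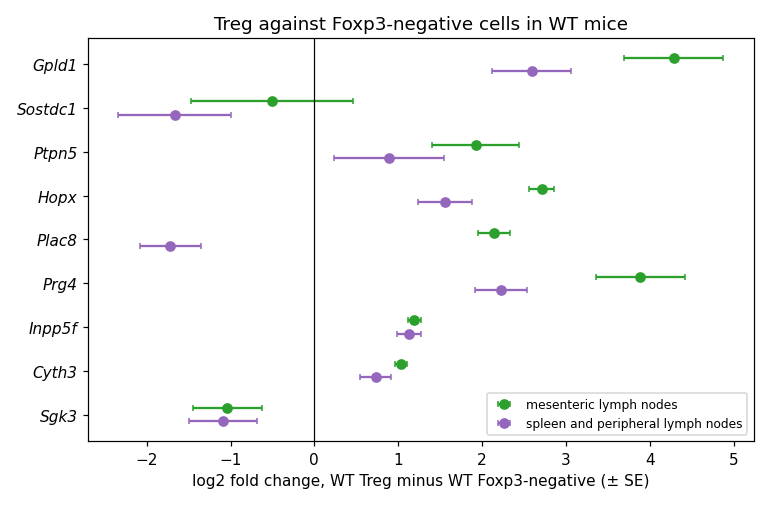
Fitted log2 fold change, WT Treg minus WT Foxp3-negative cells, of the 9 members (rows), in mesenteric lymph nodes (green, 3 libraries a group) and in spleen and peripheral lymph nodes (purple, 2 libraries a group); points are estimates and bars their standard errors. Gpld1 lies farthest to the right (4.29 and 2.59), Sgk3 lies left of 0 in both (-1.04 and -1.09), and Plac8 lies on opposite sides of 0 (2.14 and -1.72).

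In NCBIM37, the assembly behind mm9, with GENCODE M1 as the annotation, the 9 genes lie on 5 chromosomes. Gpld1 is at chr13:25035021-25082622 (plus strand), Sostdc1 at chr12:37040756-37045039 (plus) and Ptpn5 at chr7:54333168-54389054 (minus). Inpp5f shares that chromosome (chr7:135754842-135839939, plus). Hopx (chr5:77515468-77544186, minus), Plac8 (chr5:100982744-101001264, minus) and Cyth3 (chr5:144383329-144471119, plus) are on chromosome 5, and Sgk3 (chr1:9788211-9892637, plus) and Prg4 (chr1:152296542-152313295, minus) on chromosome 1. Counting used strand, so the antisense overlap of Prg4 with Tpr does not add to its reads.

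Reference promoters were read for the members that RefSeq's table holds, 6 of 9, to show how the members differ in CpG dinucleotides, the sites that TET enzymes act on once methylated. Windows run from 250 bases before to 50 after a transcription start in GRCm38.p6, which is not the build the reads were aligned to. Hopx, Plac8 and Ptpn5 have 2 windows each, and Gpld1, Inpp5f and Cyth3 have 1. The median over all 32851 windows is 7 CpGs. Gpld1 has 5, Plac8 has 5 and 9, Ptpn5 6 and 24, Hopx 8 and 21, Inpp5f 15 and Cyth3 21. No methylation was measured at these windows here. The 250 bases before the start are shown for the 2 of these members with the most negative fold changes in mLN Treg cells, Gpld1 and Hopx, and the 2 with the smallest ones among those that were lower there, Cyth3 and Inpp5f, 5′ to 3′ on the gene's strand with CpGs in capitals.
Gpld1, chr13:24942902-24943151, plus strand of GRCm38.p6: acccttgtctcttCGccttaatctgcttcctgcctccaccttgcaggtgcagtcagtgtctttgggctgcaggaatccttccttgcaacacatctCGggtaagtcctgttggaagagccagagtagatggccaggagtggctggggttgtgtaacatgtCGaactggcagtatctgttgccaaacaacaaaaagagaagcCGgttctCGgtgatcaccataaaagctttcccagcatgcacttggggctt
Hopx, window 1, chr5:77115124-77115373, minus strand of GRCm38.p6: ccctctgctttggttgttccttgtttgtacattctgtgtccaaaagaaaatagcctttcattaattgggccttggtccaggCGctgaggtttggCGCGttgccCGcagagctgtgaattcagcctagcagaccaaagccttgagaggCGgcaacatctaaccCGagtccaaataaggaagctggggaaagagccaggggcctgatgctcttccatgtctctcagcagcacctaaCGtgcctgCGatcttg
Hopx, window 2, chr5:77095268-77095517, minus strand of GRCm38.p6: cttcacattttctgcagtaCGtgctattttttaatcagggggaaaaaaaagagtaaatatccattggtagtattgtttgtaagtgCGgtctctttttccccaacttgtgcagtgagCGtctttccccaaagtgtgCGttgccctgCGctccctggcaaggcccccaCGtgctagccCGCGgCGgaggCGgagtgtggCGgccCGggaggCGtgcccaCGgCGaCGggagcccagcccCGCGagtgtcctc
Cyth3, chr5:143622197-143622446, plus strand of GRCm38.p6: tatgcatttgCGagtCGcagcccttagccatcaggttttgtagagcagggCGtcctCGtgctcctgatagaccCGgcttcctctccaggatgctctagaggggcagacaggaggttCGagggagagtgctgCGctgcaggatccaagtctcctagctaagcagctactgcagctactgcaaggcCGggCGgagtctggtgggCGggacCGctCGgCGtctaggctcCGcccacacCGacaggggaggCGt
Inpp5f, chr7:128611115-128611364, plus strand of GRCm38.p6: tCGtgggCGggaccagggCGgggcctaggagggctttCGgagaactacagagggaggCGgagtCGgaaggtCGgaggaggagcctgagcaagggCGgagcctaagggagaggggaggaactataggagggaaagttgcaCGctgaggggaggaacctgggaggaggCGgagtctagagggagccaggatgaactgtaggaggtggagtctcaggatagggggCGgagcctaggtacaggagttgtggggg
The printed stretch holds 5 CpGs in Gpld1, 8 and 18 in Hopx, 16 in Cyth3 and 11 in Inpp5f. In the full windows 5 motifs were searched on both strands. CCAAT was found in a window of 4 members (Gpld1, Ptpn5, Hopx and Plac8) and in 37.4% of all windows, and GGGCGG in a window of 3 (Ptpn5, Inpp5f and Cyth3) and in 35.7% of all. No member's window holds both motifs, so none overlap. TGTTTAC, a forkhead motif, CCGGAAG and TATAAA are not in the letters of these windows; 3.65%, 8.86% and 13.6% of all windows hold them.

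The label of a fall in DKO Treg cells held in both tables for 5 of the 9 members. Gpld1, Prg4, Hopx, Sgk3 and Cyth3 were lower in every DKO Treg library than in every WT Treg library, in mLNs and in spleen and pLNs. Plac8 and Inpp5f were so in mLNs, with overlapping ranges in spleen and pLNs. Sostdc1 and Ptpn5 were so in spleen and pLNs and were higher on average in DKO Treg cells of mLNs. Of 9 members, 7 in either table had every DKO Treg library below every WT one. Of all genes tested, 19.2% had that order in mLNs and 26.1% in spleen and pLNs. Since this contrast chose the members, nothing is read from these counts. The median log2 fold change of the members was -1.25 in mLNs and -1.27 in spleen and pLNs, where the median over all genes tested was 0.0045 and 0.018. Cells were measured in bulk, so fewer cells that express a gene and less RNA per cell cannot be told apart.

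**Figure D2:**
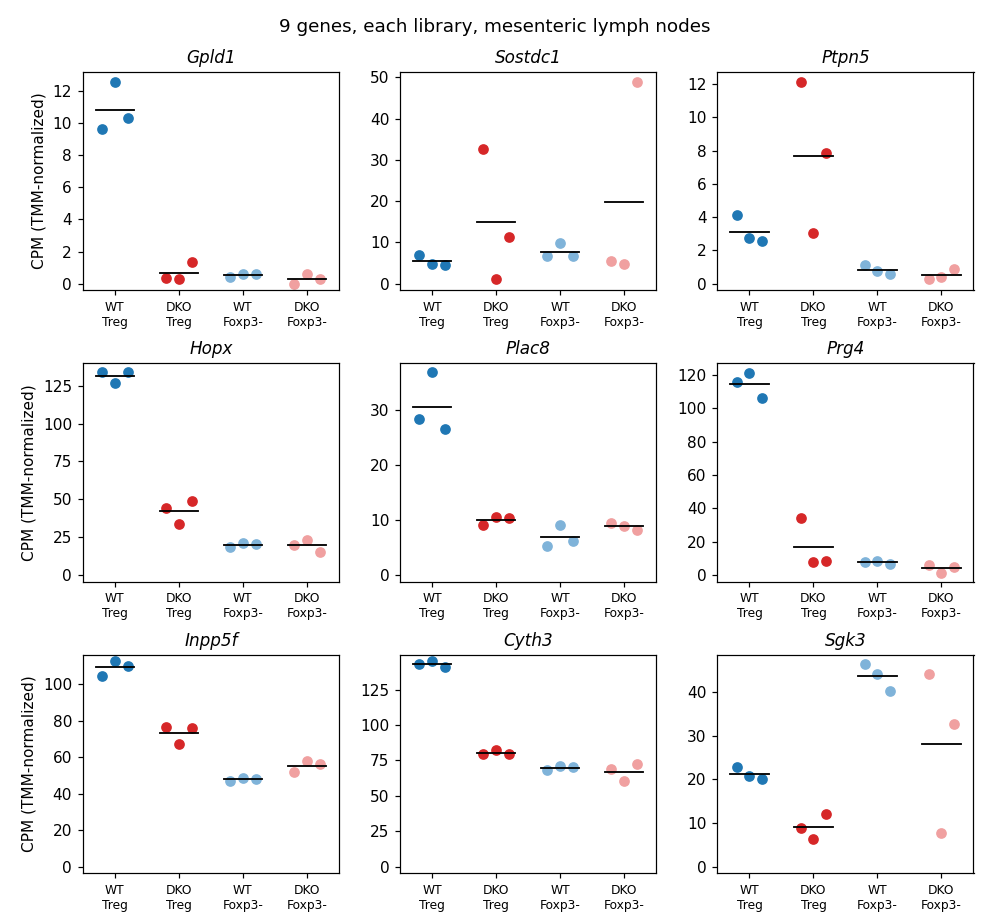
CPM after TMM normalization (vertical axes, linear, a scale for each gene) of the 9 members in the 12 libraries of mesenteric lymph nodes, one point per library in replicate order, with the mean as a line. The DKO Treg points of Gpld1 (0.287 to 1.34 CPM) lie near 0, and replicate 3 is above every Foxp3-negative library (0 to 0.633); those of Hopx (33.9 to 49.2) lie between WT Treg and Foxp3-negative cells, and those of Sostdc1 spread from 1.15 to 32.7.

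Gpld1 had the most negative fold change of the members in mLNs. It was at 9.62, 12.6 and 10.3 CPM across WT Treg libraries, versus 0.382, 0.287 and 1.34 CPM across those of DKO, a fitted log2 fold change of -4.03 ± 0.57 (SE), or 16.3-fold lower; without DKO replicate 3, the highest of the DKO libraries, it was -4.98. The DKO Treg range overlapped with that of WT Foxp3- cells, which held 0.426 to 0.608 CPM. In the spleen and pLN table the WT Treg libraries held 7.30 and 10.2 CPM and the DKO Treg libraries 0.744 and 0.887 CPM (-3.41 ± 0.49, 10.6-fold lower), which is below the WT Foxp3- libraries at 1.60 and 1.29 CPM.

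Prg4 was at 115, 121 and 106 CPM in WT Treg cells of mLNs. DKO Treg replicate 1 retained 34.4 CPM, and replicates 2 and 3 held 7.62 and 8.47 CPM, inside the range of WT Foxp3- cells (6.68 to 8.64 CPM). The fitted log2 fold change was -2.76 ± 0.49, or 6.77-fold lower, and -3.83 without replicate 1. From spleen and pLNs, Prg4 was at 19.1 and 18.7 CPM in WT Treg cells and at 3.26 and 3.55 CPM in DKO Treg cells (-2.47 ± 0.32).

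Hopx, the most abundant member, was tightly grouped in WT Treg cells of mLNs, at 134, 127 and 134 CPM, and held 44.0, 33.9 and 49.2 CPM in DKO Treg cells. That is 3.10-fold lower (-1.63 ± 0.14), yet every DKO Treg library stayed above every Foxp3- library, whose WT range was 18.6 to 21.1 CPM. In the spleen and pLN table it was at 199 and 202 CPM in WT versus 61.2 and 105 CPM in DKO Treg cells (-1.27 ± 0.32), and the DKO range overlapped with the WT Foxp3- cells at 68.5 and 67.8 CPM. The pair of DKO libraries differed from each other by more than the WT pair did.

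Sgk3, an endosomal kinase of the AKT-related family, was the one member that was lower in DKO Treg cells in both tables although WT Treg cells held less of it than WT Foxp3- cells. In mLNs it was at 22.9, 20.8 and 20.2 CPM in WT Treg cells and at 8.78, 6.25 and 12 CPM in DKO Treg cells (-1.25 ± 0.44). Values in spleen and pLNs were 16.2 and 22.7 CPM in WT versus 6.47 and 10.9 CPM in DKO (-1.17 ± 0.42). DKO Treg cells were the lowest of the 4 groups on average in both tables.

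Cyth3, an exchange factor for ARF GTPases that binds phosphatidylinositol trisphosphate, differed less in size but with little spread in mLNs. Its WT Treg libraries held 143, 145 and 141 CPM and its DKO Treg libraries 79.2, 82.7 and 79.9 CPM, 1.78-fold lower (-0.83 ± 0.08). The DKO Treg libraries remained above the WT Foxp3- libraries (68.5 to 70.9 CPM). In the spleen and pLN table it was at 113 and 108 CPM in WT versus 71.2 and 89.9 CPM in DKO Treg cells (-0.46 ± 0.18).

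Plac8 and Inpp5f were lower in DKO Treg cells of mLNs without a clear difference in spleen and pLNs. Plac8 was at 28.4, 36.9 and 26.6 CPM in WT versus 9.17, 10.6 and 10.4 CPM in DKO Treg cells of mLNs (-1.61 ± 0.19). In spleen and pLNs it was at 5.23 and 6.75 CPM in WT versus 2.63 and 6.89 CPM in DKO Treg cells (-0.34 ± 0.37), so DKO replicate 2 was above both WT libraries; without it the difference was -1.19, and without DKO replicate 1 it was 0.20. Inpp5f, a phosphoinositide 4-phosphatase of endosomes, was at 104, 113 and 110 CPM in WT versus 76.6, 67.3 and 76.2 CPM in DKO Treg cells of mLNs (-0.57 ± 0.08). In the spleen and pLN table its ranges overlapped, with 84.6 and 73.6 CPM in WT against 69.8 and 76.0 CPM in DKO (-0.12 ± 0.14). One gene model of the annotation, Gm16044, overlaps Inpp5f on the same strand, and reads of the pair may not be told apart.

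Sostdc1 and Ptpn5 went opposite ways in the 2 tables. In spleen and pLNs Sostdc1 was at 27.0 and 18.2 CPM in WT Treg cells and at 1.03 and 0.137 CPM in DKO Treg cells, the second of which is under the 3 counts of the limit; the fitted log2 fold change was -5.18 ± 0.95, with -7.28 when DKO replicate 1 was left out and -4.44 when replicate 2 was. In mLNs it was at 7.07, 4.88 and 4.53 CPM in WT versus 32.7, 1.15 and 11.3 CPM in DKO Treg cells (1.45 ± 0.95), with replicate 2 below and replicates 1 and 3 above every WT library. Ptpn5 had 23.7 and 16.1 CPM in WT versus 1.77 and 1.5 CPM in DKO Treg cells of spleen and pLNs (-3.59 ± 0.76). In mLNs it had 4.11, 2.73 and 2.56 CPM in WT versus 12.1, 3.02 and 7.89 CPM in DKO Treg cells (1.29 ± 0.45). DKO replicate 2, the library with the high Jchain, was the lowest of the 3 DKO Treg libraries of mLNs for both genes; without it the fitted difference was 2.0 for Sostdc1 and 1.67 for Ptpn5. Replicate 1 was the highest for both, and without it the difference was 0.16 for Sostdc1 and 0.79 for Ptpn5. Of the genes chosen for a fall, these 2 were not lower on average in mLNs.

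**Figure D3:**
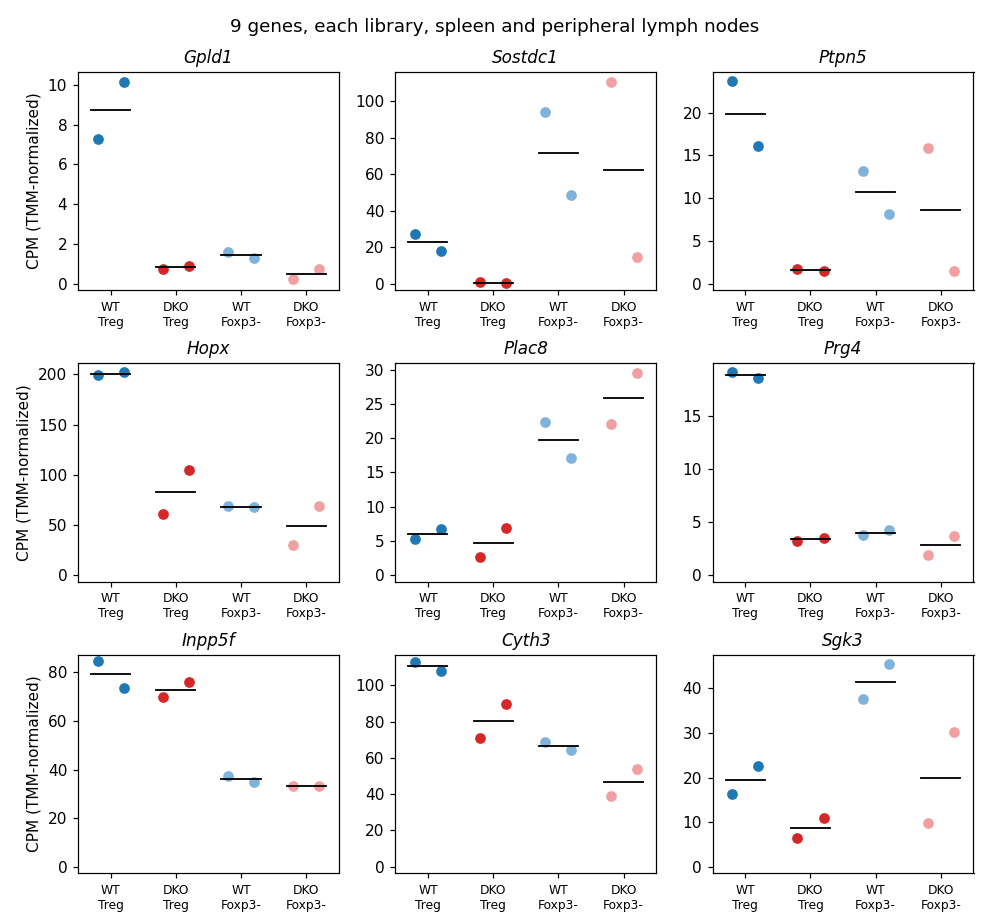
CPM after TMM normalization (vertical axes, linear, a scale for each gene) of the 9 members in the 8 libraries of spleen and peripheral lymph nodes, one point per library in replicate order, with the mean as a line. Sostdc1 (0.137 and 1.03 CPM) and Ptpn5 (1.5 and 1.77) are near 0 in the DKO Treg libraries, and both spread widely over the Foxp3-negative libraries (Sostdc1 from 14.5 to 110 CPM).

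The Foxp3- libraries played no part in the choice of the members, and here DKO was tested against WT with edgeR's quasi-likelihood test, adjusted over all genes of a table. Calls required an adjusted p no higher than 0.05 together with a 1.5-fold difference or more. None of the 9 members was called in either table (0 of 9 and 0 of 9). Of all genes tested, 3.43% were called in mLNs and 0.819% in spleen and pLNs. Adjusted p-values of the members lay between 0.155 and 1 in mLNs and between 0.216 and 0.979 in spleen and pLNs. At an unadjusted p under 0.05 there was 1 member in mLNs (Inpp5f) and there were 3 in spleen and pLNs (Gpld1, Cyth3 and Sgk3), where 18.7% and 12.9% of all genes were under it. DESeq2 with the 4 groups called 0 and 0, with 1 and 3 members at an unadjusted p under 0.05. A p that misses the threshold does not show that the genes were equal in both genotypes.

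The sizes differed between the members. The median log2 fold change in Foxp3- cells was -0.060 in mLNs and -0.47 in spleen and pLNs, against a median of 0 over all genes in both tables. Hopx was at 18.6, 21.1 and 20.5 CPM in WT versus 20.1, 23.4 and 15.6 CPM in DKO Foxp3- cells of mLNs (-0.02 ± 0.15, adjusted p = 1 with edgeR), with overlapping ranges. Cyth3 held 68.5, 70.9 and 70.1 CPM in WT versus 68.7, 60.2 and 72.4 CPM in DKO there (-0.06 ± 0.08, edgeR's adjusted p = 0.713). Inpp5f was higher in each DKO library, at 52.1, 57.8 and 56.2 CPM against 46.8, 48.5 and 48.1 CPM in WT (0.21 ± 0.08, edgeR's adjusted p = 0.155). Plac8 was also higher on average in DKO, at 9.40, 9.01 and 8.13 CPM against 5.28, 9.05 and 6.28 CPM (0.35 ± 0.20, edgeR's adjusted p = 0.360), but WT replicate 2 was above 2 of the DKO libraries; leaving out 1 library gave 0.20 to 0.62.

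Prg4 was below every WT library in each DKO Foxp3- library, in mLNs (6.12, 1.27 and 4.77 CPM against 7.66, 8.64 and 6.68 CPM, -0.96 ± 0.59, edgeR's adjusted p = 0.417, and -0.49 without replicate 2) and in spleen and pLNs (1.95 and 3.70 CPM against 3.80 and 4.26 CPM, -0.52 ± 0.32, edgeR's adjusted p = 0.566). In mLNs 1 of 9 members had that order, beside 9.74% of all genes, and in spleen and pLNs 5 of 9, beside 21.1%. The other 4 of these 5 were Gpld1, Inpp5f, Cyth3 and Sgk3. Gpld1 and Ptpn5 stayed low in Foxp3- cells of mLNs in both genotypes, at 0 to 0.633 CPM in DKO and 0.426 to 0.608 CPM in WT for Gpld1, where a difference was not detectable at this depth (-0.76 ± 0.75, and -1.95 without DKO replicate 2).

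Single libraries set several of these values. Sgk3 was at 44.1, 7.81 and 32.6 CPM in DKO Foxp3- cells of mLNs, against 46.6, 44.3 and 40.4 CPM in WT (-0.64 ± 0.41). The low one is replicate 2, the library with 474 CPM of Jchain; without it the log2 fold change was -0.18. In the spleen and pLN table Sgk3 was at 9.79 and 30.2 CPM in DKO and 37.5 and 45.6 CPM in WT Foxp3- cells (-1.06 ± 0.41, edgeR's adjusted p = 0.275), and the low one is replicate 1, the library with high Ctla4; without it the log2 fold change was -0.47. Sostdc1 in mLNs was at 5.50, 4.71 and 49.0 CPM in DKO and 6.81, 9.79 and 6.78 CPM in WT Foxp3- cells; its log2 fold change of 1.32 ± 0.92 became -0.62 without replicate 3.

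The 2 DKO Foxp3- libraries of spleen and pLNs disagreed widely. Each was also fitted alone against the WT pair. A lone library has no spread of its own, so only the fitted differences are given. With replicate 1 alone they were -2.48 for Gpld1, -1.20 for Hopx, -1.05 for Prg4, -0.77 for Cyth3 and -2.08 for Sgk3. With replicate 2 alone they were -0.96 for Gpld1, 0.016 for Hopx, -0.12 for Prg4, -0.31 for Cyth3 and -0.47 for Sgk3. For Sostdc1 and Ptpn5 they were 0.63 and 0.56 with replicate 1 alone, and -2.30 and -2.85 with replicate 2 alone. Sostdc1 and Ptpn5 had the same order over the 4 Foxp3- libraries of this table. Sostdc1 was at 94.1 and 48.7 CPM in WT versus 110 and 14.5 CPM in DKO, and Ptpn5 at 13.2 and 8.20 CPM in WT versus 15.8 and 1.48 CPM in DKO. The Treg marker list summed to 708 CPM in DKO Foxp3- replicate 1 and to 203 to 229 CPM in the other 3 Foxp3- libraries, while Foxp3 averaged 0.496 CPM in DKO Foxp3- cells. The plasma cell list summed to 328 CPM in that library and to 97.4 to 135 CPM in the other 3. The part of these lists in the values was not tested.

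**Figure D4:**
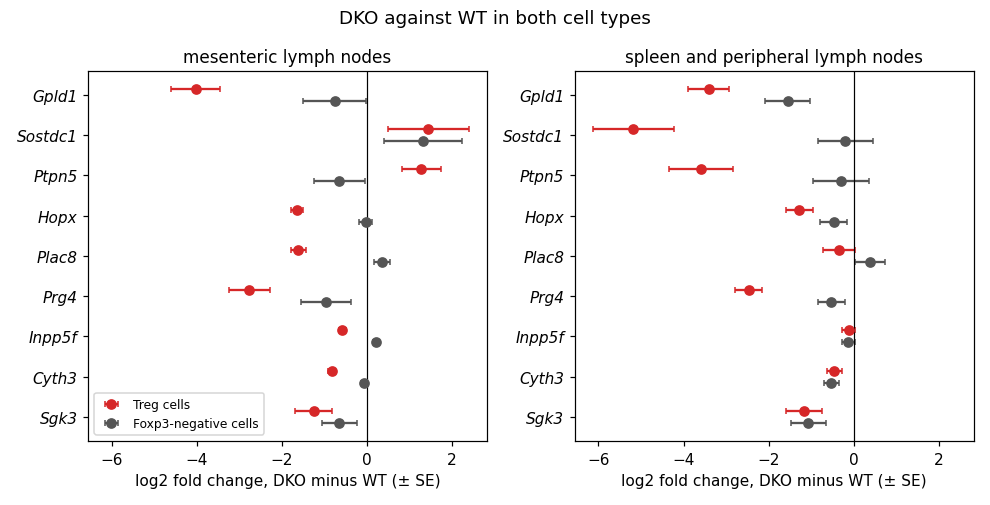
Fitted log2 fold change, DKO minus WT, of the 9 members (rows) in Treg cells (red) and in Foxp3-negative cells (grey), in mesenteric nodes (left, 3 libraries a group) and in spleen and peripheral nodes (right, 2 libraries a group); points are estimates and bars their standard errors. In Treg cells Gpld1 lies at -4.03 and -3.41, Sostdc1 at 1.45 on the left and -5.18 on the right; in Foxp3-negative cells the values run from -0.96 to 1.32 on the left and from -1.55 to 0.39 on the right.

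Marker lists of other cells differed between the genotypes in both cell types. The NK cell list (6 genes in the fit) summed to 109 to 190 CPM in DKO and 19.2 to 23.0 CPM in WT Treg cells of mLNs, and to 207 to 260 against 61.3 to 62.9 CPM in spleen and pLNs, with 1 of its genes at 0 in the WT group of each table; much of it was Klrb1c, at 72.3 to 155 CPM in DKO Treg cells of mLNs. The myeloid list (12 genes) summed to 81.5 to 130 CPM in DKO and 63.4 to 78.3 CPM in WT Treg cells of mLNs, without overlap, and Cd14, Adgre1 and Itgax were at 0 in WT; in spleen and pLNs its ranges overlapped. The CD8 T cell list (2 genes) summed to 2.95 to 3.94 CPM in DKO and 16.0 to 20.8 CPM in WT Treg cells of mLNs, and to 6.70 to 9.42 against 17.2 to 19.7 CPM in spleen and pLNs. Ranges overlapped in mLNs for the B cell list (7 genes, 39.0 to 104 CPM in DKO against 31.5 to 40.2 CPM in WT), the plasma cell list (126 to 627 against 153 to 159 CPM), the plasmacytoid dendritic cell list and the stromal and endothelial list. The last 2 were apart in spleen and pLNs, the plasmacytoid list (5 genes) at 61.2 to 73.7 CPM in DKO against 75.9 to 81.0 CPM in WT and the stromal list (9 genes) at 104 to 110 against 89.2 to 92.5 CPM, and so was the T cell list (6 genes), at 3599 to 3866 against 3923 to 4099 CPM. The erythroid list summed to at most 0.314 CPM in any library. In the plasma cell list, much of the sum in WT Treg cells of mLNs was Xbp1, at 115 to 119 CPM, where Jchain was at 1.24 to 3.37 CPM. The Treg list (7 genes, none at 0) summed to 1543 to 1784 CPM in DKO and 2035 to 2262 CPM in WT Treg cells of mLNs, and in spleen and pLNs its ranges overlapped (1678 to 1803 against 1703 to 1854 CPM). In Foxp3- cells, where the members were tested, lists were apart as well. In mLNs the NK cell list summed to 103 to 154 CPM in DKO and 42.5 to 54.4 CPM in WT, the CD8 T cell list to 5.0 to 10.1 against 21.5 to 23.3 CPM, the B cell list to 9.67 to 21.3 against 5.59 to 6.82 CPM, the plasma cell list to 86.6 to 706 against 70.0 to 83.0 CPM and the Treg list to 184 to 351 against 140 to 145 CPM. Spleen and pLNs had the same order for these 5 lists, and their myeloid list was also higher in DKO (109 to 156 against 84.6 to 87.0 CPM) and their stromal list lower (99.4 to 135 against 144 to 148 CPM). The part of these lists in the differences between DKO and WT was not tested.

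Genes of the same families and pathways were tested in DKO against WT Treg cells, in 8 lists. Of 110 tested in mLNs, 12 were called higher and 6 lower in DKO (16.4%). Of all genes tested 11.9% were called, 8.5% higher and 3.43% lower. Of 111 tested in spleen and pLNs, 2 were called higher and 1 lower (2.7%), where 1.74% of all genes were called, 1.14% higher and 0.605% lower. The medians of the lists together were -0.070 in mLNs and 0 in spleen and pLNs, beside 0.0045 and 0.018 over all genes. Tlr4 and Ly6c1 were called in both tables. In spleen and pLNs the call of Tlr4 was lost under 4 and that of Ly6c1 under 5 of 12 alternatives. Among these were edgeR's filterByExpr (adjusted p = 0.0853 and 0.142) and the fits without DKO replicate 1 or either WT library. Of the 18 calls in mLNs, 7 held under each alternative that gave an adjusted p (Batf, Dkk3, Fosl2, Ly6c1, Pik3r1, Thy1 and Tlr4). Without DKO Treg replicate 2, the library with high Jchain, 13 were called, and Cd55, Cd59a, Hspg2, Inppl1, Ly6e and Map2k3 were no longer among them. In Foxp3- cells 7 of the related genes were called higher in DKO and 0 lower in mLNs, and 1 and 0 in spleen and pLNs. Of all genes 3.43% and 0.819% were called there. Dusp16 (2.02), Inppl1 (1.21), Acvr1 (1.76) and Tlr4 (2.30) were among the 7, with edgeR's adjusted p of 0.0219, 0.0197, 0.0446 and 0.0441. Tlr4 was the 1 in spleen and pLNs (1.99, edgeR's adjusted p = 0.0241). These genes were thus called higher in both cell types of mLNs.

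**Figure D5:**
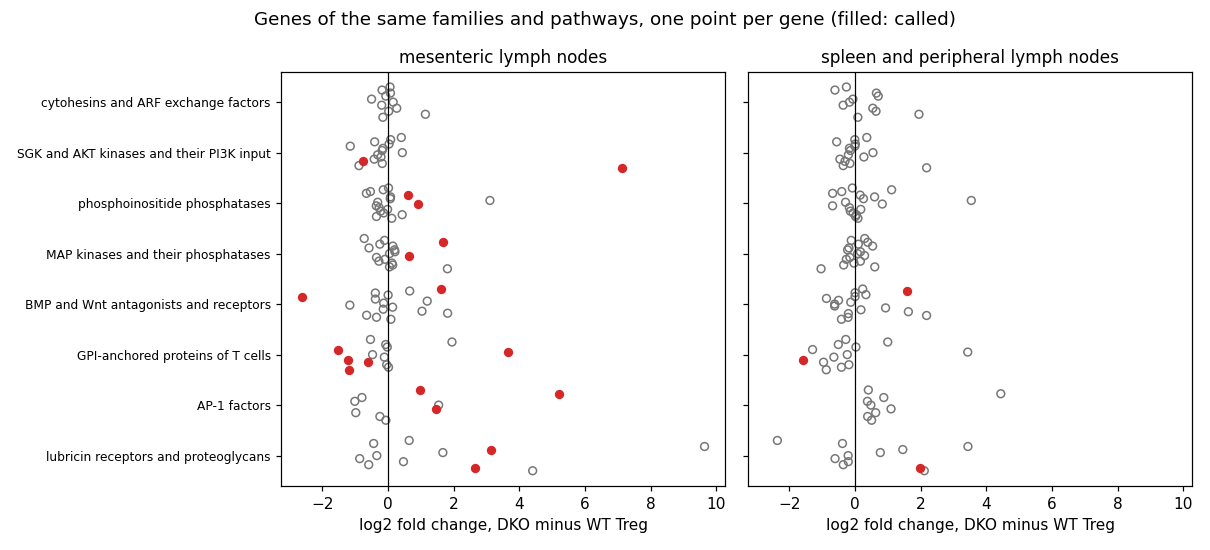
Fitted log2 fold change, DKO minus WT Treg cells (horizontal axis), of genes of the members' families and pathways, one point per gene in 8 lists (rows), in mesenteric nodes (left) and in spleen and peripheral nodes (right); filled red points are called (adjusted p no higher than 0.05, at least 1.5-fold), and points far to the right include genes without reads in WT, whose fitted values depend on the prior count. In mesenteric nodes 4 genes of the GPI-anchored list lie filled left of 0, and in spleen and peripheral nodes 3 points are filled in all.

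GPI-anchored proteins, on which Gpld1 acts, had the most calls downward. Of 13 tested in mLNs, 4 fell and 1 rose, with a list median of -0.12; of these 5 calls those of Thy1 and Ly6c1 held without DKO replicate 2, and those of Ly6e, Cd55 and Cd59a did not (edgeR's adjusted p = 0.0545, 0.131 and 0.108), with differences of -0.63, -1.24 and 3.23 there. Thy1, a GPI-anchored T cell surface glycoprotein, was at 793, 772 and 748 CPM in WT versus 355, 303 and 351 CPM in DKO Treg cells (-1.20 ± 0.11, edgeR's adjusted p = 7e-05). Ly6c1 fell from 91.8, 58.1 and 70.7 CPM to 23.0, 37.7 and 34.1 CPM (-1.22 ± 0.27, edgeR's adjusted p = 0.00760), and in spleen and pLNs from 53.4 and 70.1 CPM to 15.9 and 25 CPM (-1.60 ± 0.36, edgeR's adjusted p = 0.0478). Ly6e fell by 0.60 and Cd55, a complement regulator, by 1.52 on the log2 scale in mLNs. Cd59a, another complement regulator, was the one that rose, on 1 count in WT and 19 in DKO, a ratio of 16.8 with an exact 95% interval of 2.67 to 698 for counting error. Of the 13 in spleen and pLNs, edgeR called Ly6c1, which fell, and no other, and DESeq2 with the 4 groups called 3.

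AP-1 genes were listed beside Hopx. Of 9 tested, 3 rose in mLNs: Fosl2 (1.47 ± 0.23, edgeR's adjusted p = 0.00121), Batf (0.98 ± 0.17, 0.00207) and Batf3, which had no count in WT Treg cells and was at least 1.39-fold higher in DKO against the mean floor of 3 counts per library. DESeq2 with the 4 groups called 2 of the 9 and gave Batf3 no adjusted p. Fos (-0.80 ± 0.40) and Jun (-0.98 ± 0.40) were not called in mLNs, with edgeR's adjusted p of 0.187 and 0.107, nor in spleen and pLNs, at 0.87 ± 0.31 and 0.63 ± 0.33. In mLNs Jun was called with only the 2 groups in the fit (edgeR's adjusted p = 0.00283), and Fos with the replicate block (edgeR's adjusted p = 0.00557). In spleen and pLNs the differences of Fos and Jun were 1.39 and 1.14 without DKO replicate 2. Without DKO replicate 1 they were 0.053 and -0.20. The list median was -0.069 in mLNs and 0.50 in spleen and pLNs, where 0 of 9 were called by edgeR and 0 by DESeq2, and 3 were at an unadjusted p under 0.05, beside 20.4% of all genes.

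Of the lubricin list (11 tested), which holds the reported receptors of Prg4 and other proteoglycans, 2 rose in mLNs. Tlr4, the receptor for lipopolysaccharide, rose from 1.23, 2.07 and 1.87 CPM to 17.6, 10.9 and 3.78 CPM (2.64 ± 0.47, edgeR's adjusted p = 0.00230), and in spleen and pLNs from 4.53 and 3.20 CPM to 13.2 and 17.1 CPM (1.97 ± 0.33, edgeR's adjusted p = 0.0137). Hspg2, the basement membrane proteoglycan perlecan, was called on 5 counts in WT and 54 in DKO (3.13 ± 1.02, edgeR's adjusted p = 0.0473). Most of these were in replicate 2, at 2.8 CPM against 0.611 and 0.587 CPM; without it the difference was 1.98 and edgeR's adjusted p 0.264, and with DESeq2 on 4 groups the adjusted p was 0.0728. Cd44, a hyaluronan and lubricin receptor, was at 251 ± 15.3 CPM (SD, n = 3) in WT versus 185 ± 31.5 CPM in DKO Treg cells of mLNs and was not called (-0.44 ± 0.25).

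None of 11 cytohesins and ARF exchange factors was called in either table by edgeR, and Cyth1 (-0.50 ± 0.11 in mLNs, edgeR's adjusted p = 0.00879) passed the p but not the fold, while Cyth2 (0.15 ± 0.09) and Cyth4 (-0.19 ± 0.15) passed neither. At an unadjusted p under 0.05 there were 4 of the 11 in mLNs and 7 in spleen and pLNs, beside 32.4% and 20.4% of all genes, and DESeq2 with the 4 groups called 0 and 1. Of 15 SGK and AKT kinases with their PI3K input, 9 were at an unadjusted p under 0.05 in mLNs. Pik3r1, a regulatory subunit of PI3K, fell (-0.76 ± 0.17, edgeR's adjusted p = 0.00773) and Sgk2 rose, from 0 in every WT Treg library of mLNs to 2.60, 0.216 and 1.43 CPM in DKO, at least 5.37-fold against the mean floor; the middle value is at that floor. Sgk1 was not called (-0.89 ± 0.33, edgeR's adjusted p = 0.0753), though DESeq2 with the 4 groups called it (0.0306). Of 18 phosphoinositide phosphatases Inpp5b (0.60 ± 0.13) and Inppl1 (0.89 ± 0.24) rose in mLNs, with edgeR's adjusted p of 0.00842 and 0.0199; without DKO replicate 2 the call of Inppl1 was lost (0.0588).

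Of 17 MAP kinases and their phosphatases, the substrates and kin of Ptpn5, 2 rose in mLNs, Dusp16 (1.67 ± 0.39, edgeR's adjusted p = 0.0106) and Map2k3 (0.64 ± 0.13, 0.00437), which without DKO replicate 2 stayed under the p and missed the fold (0.54). Ptpn7, a related phosphatase of lymphocytes, was at 266 ± 31.3 CPM in WT versus 274 ± 8.95 CPM in DKO Treg cells (n = 3) and was not called. Of 16 BMP and Wnt antagonists and receptors tested in mLNs beside Sostdc1, Dkk3, a secreted protein of the Dickkopf family, fell from 4.85, 6.37 and 4.82 CPM to 1.22, 0.503 and 0.839 CPM (-2.64 ± 0.43, edgeR's adjusted p = 0.00136), and Acvr1, a type I receptor of the family, rose (1.62 ± 0.41, 0.0145). In spleen and pLNs 17 were tested and Bmpr1a, a type I BMP receptor chosen for mention after its values were seen, rose from 6.15 and 6.54 CPM to 23.4 and 14.5 CPM (1.58 ± 0.29, edgeR's adjusted p = 0.0211); this call too was lost with filterByExpr (0.0871) and without DKO replicate 1 or either WT library (0.341 to 0.416).

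The genes whose levels ran most like each member's were found by Pearson's r of log2 CPM over the 12 libraries of mLNs and over the 8 of spleen and pLNs, ranked by the lower of both among 10023 genes. The libraries share groups and mice, so these values describe likeness only. Sgk3 ran most like Cd55 (r = 0.983 and 0.985) and Grap2 (0.977 and 0.984), Cyth3 like Il10rb (0.963 and 0.972) and Ppm1l (0.963 and 0.958), and Hopx like Arl6ip1 (0.958 and 0.971) and Socs2 (0.991 and 0.956). Inpp5f ran most like Cldnd1 (0.958 and 0.953) and Rgs1 (0.953 and 0.967), Gpld1 like Ubash3b (0.942 and 0.937) and Wdr82 (0.936 and 0.95), and Prg4 like St6galnac3 (0.926 and 0.941) and Ggh (0.924 and 0.940). Plac8 ran most like Ffar2 (0.916 and 0.941) and Cited4 (0.834 and 0.917). The lowest likeness was that of Ptpn5, to Hccs (0.752 and 0.853) and Slc15a3 (0.756 and 0.751), and of Sostdc1, to Rsbn1 (0.674 and 0.858) and Cacna1d (0.670 and 0.821). No member was among the first 2 of another.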

How the data were processed

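RNA of 20 sorted samples was sequenced from a single end after strand-specific library preparation. The authors aligned reads to mm9 with TopHat2 (2.1.1), with 1 alignment retained per read at most, and assigned reads to RefSeq genes by strand using featureCounts (Subread 1.4.3-p1), per the methods and the submitters' processing notes. The deposited counts are not normalized. The deposited TPM values were made by the authors in a way not given in the sources used here. All columns matched a sample (0 unused). Reads of near-identical copies are uncertain.

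Each table was analysed on its own. TMM normalization was followed by the quasi-likelihood test of edgeR (edgeR 4.0.16, limma 3.58.1, R 4.3.3), 4 groups in one fit, genes with at least 1 count in total (16784 in mLNs, 16357 in spleen and pLNs), Benjamini-Hochberg adjustment over all of them. Standard errors are the log2 fold change divided by the square root of F. Biological coefficients of variation were 17.7% and 21.6%. Likeness used genes whose mean reached 1 CPM in both tables and log2 CPM with a prior count of 2; tables were read with pandas 2.3.3 (Python 3.11.15). The workflow was tested on simulated data. The members, the lists and the rule for named genes were chosen with earlier results of these data known. The rule names all members, relatives called in both tables, otherwise up to 3 per list by adjusted p in mLNs, Cyth1, Cyth2, Cyth4, Sgk1, Ptpn7, Fos, Jun and Cd44, and the 2 genes most like each member. Genes named outside it, after their values were seen, are Cd59a and Bmpr1a. Alternatives were edgeR on 2 groups, edgeR with size factors of DESeq2 (1.42.0), DESeq2 itself with 4 or 2 groups, filterByExpr, a robust prior, a replicate block, no fold change minimum, TPM with pseudocounts of 1 and 0.1, Spearman's rho and leaving out each library.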

Additional observations from a re-analysis of the deposited data

Results flagged for a closer look

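Plac8 in mLNs was below the WT mean in each DKO Treg library and above it in each DKO Foxp3- library (log2 fold change 0.355 in Foxp3- cells, with overlapping ranges, and -1.61 in Treg cells). Inpp5f in mLNs did the same (0.212 and -0.572). Inpp5f in Foxp3- cells was above the WT mean in each DKO library of mLNs (0.212) and below it in each of spleen and pLNs (-0.123). These differences were not tested, because the Treg libraries chose the members and the tables were normalized apart.

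Of the genes named from the related lists, only Thy1 had an interaction term of the fit with an adjusted p under 0.05 in mLNs. The other genes are not thereby shown to have equal effects in both cell types. The log2 fold change of Thy1 was -1.20 in Treg cells and -0.28 in Foxp3- cells, a difference of -0.921 with edgeR's adjusted p = 0.0307. Every DKO Treg library was below every WT Treg library. The term was fitted on all libraries only, without the replicate block and without leaving out DKO replicate 2. The share of all genes with such a term is not given.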

How the results depend on the processing

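The median log2 fold change of the members in Treg cells ran from -1.50 to -1.04 under the 13 alternatives in mLNs. In spleen and pLNs it ran from -1.72 to -0.94 under 11. This contrast chose the members, so nothing is read from its steadiness. On TPM the median of all genes with at least 1 TPM shifted by 0.148 in mLNs and 0.277 in spleen and pLNs, so that Inpp5f in spleen and pLNs turned to 0.208 with a pseudocount of 1 and 0.215 with 0.1, below that shift. A pseudocount of 1 understates low genes, and with it Gpld1 in mLNs was at -2.03 and Sostdc1 in spleen and pLNs at -3.62. Members called in Foxp3- cells stayed at 0 under all 14 alternatives in mLNs. In spleen and pLNs they stayed at 0 under each alternative that kept both libraries of every group. Leaving out 1 DKO library there moved the fitted differences widely, as given above. Relatives called in mLNs numbered 18, 28 with edgeR on 2 groups, and 9 to 19 when 1 library was left out (9 without WT Treg replicate 2, 11 without WT Treg replicate 1 or 3). In spleen and pLNs they numbered 3, 8 and 6 with DESeq2 on 2 and 4 groups, 10 with edgeR on 2 groups, 5 with the replicate block, 0 with filterByExpr, and 0 to 20 when 1 library was left out (20 without DKO Treg replicate 2, 0 without any 1 of the other 3). The other alternatives kept these counts within 1.5 times. The causes were not tested.

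Without 1 library Ptpn7 in mLNs ranged from -0.017 to 0.14 and Jun in spleen and pLNs from -0.20 to 1.14. Single members in Foxp3- cells changed sign only where 1 library was left out: in mLNs Sostdc1 (-0.62 to 1.80), Hopx (-0.16 to 0.12) and Cyth3 (-0.12 to 0.023), and in spleen and pLNs Sostdc1 (-2.30 to 0.63), Ptpn5 (-2.85 to 0.56) and Hopx (-1.20 to 0.016). By Spearman's rho 7 of the 18 most alike genes stayed among the first 10.

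With the replicate number as a block, 0 and 0 members were called in Foxp3- cells, the relatives called were 22 and 5, and the medians of the members were -1.29 and -1.33; Fos in mLNs was then called (-0.75, edgeR's adjusted p = 0.00557), and the calls of Cd59a and Hspg2 were lost (0.0595 and 0.0671). In mLNs the deviations of samples of one number had r of 0.111 to 0.390 within a genotype. Across genotypes they had r of -0.048 to 0.114, so the ranges overlapped. DKO Foxp3- replicate 1 had a higher r with DKO Treg replicate 3 (0.160) than with DKO Treg replicate 1 (0.111). In spleen and pLNs samples of one number across genotypes had r of 0.155 to 0.221, over 2 numbers, too few to take the numbers as pairs. With 2 or 3 libraries a group, small differences of low genes such as Gpld1 in Foxp3- cells were not detectable.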
